A study of Mus musculus with 8 samples.

Results

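The genes described here carry out glycolysis or belong to the response of cells to low oxygen. They were listed by name, as 34 genes of glucose uptake, glycolysis, lactate export and the hypoxia response. The rule uses no measured value, but the list was drawn up with earlier results of these data known. Of these, 33 are among the 13305 genes with counts in whole bone marrow (BM) of AML mice, and Adm was not analysed here.

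Glycolysis turns glucose into pyruvate, and pyruvate into lactate when it is not oxidized in mitochondria. When oxygen is low, the transcription factor subunit HIF-1α, encoded by Hif1a, escapes from hydroxylation by prolyl hydroxylases of the Egln family. It then pairs with Arnt and binds the core letters ACGTG or GCGTG before genes of glucose transporters, glycolytic enzymes and secreted factors such as Vegfa. BM is a tissue with low oxygen, and both leukemic and normal myeloid cells rely on glycolysis.

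All 8 mice carried Mx1-Cre, Dnmt3a+/- and Flt3ITD/ITD on the C57BL/6N strain and differed in Gab2, the gene of a docking protein downstream of receptor tyrosine kinases. AML WT mice were Gab2+/+ (n = 3), AML HET mice carried 1 Gab2 allele (n = 2) and AML KO mice carried none (n = 3). Ages of the sequenced mice are not given in the sources used here. Loss of Dnmt3a was driven by Mx1-Cre, which was active without an inducing injection per the study, and the Gab2 knockout allele carries a neomycin cassette in place of part of its exons. No mouse without the leukemia alleles is among the libraries, so all values compare AML mice with each other.

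Each library held between 28009258 and 39266815 counts, and no listed gene had a count under 14 in any mouse. Gab2 itself was at 74.7 ± 17.0 CPM (counts scaled to library size, mean ± SD, n = 3) in AML WT, 53.3 ± 3.57 (n = 2) in AML HET and 40.8 ± 6.15 (n = 3) in AML KO BM. Markers of several blood cell types also differed by genotype. Of 23 erythroid markers 21 were higher in AML KO than in AML WT past an adjusted p of 0.05, and their summed level was 266 to 398 CPM in AML WT and 1638 to 5665 CPM in AML KO mice. Of 15 mature neutrophil markers 8 were higher, with sums of 1728 to 5131 and 10991 to 17711 CPM. Of 16 megakaryocyte and platelet markers 15 were higher, with sums of 105 to 141 and 383 to 515 CPM. Of 7 markers of neutrophil primary granules 1 was higher, with sums of 5394 to 6033 and 7069 to 8411 CPM. Of 11 markers of hematopoietic stem and progenitor cells (HSPC) 3 were higher, with sums of 606 to 666 and 759 to 935 CPM. Of 10 monocyte markers 0 passed, with sums of 7675 to 10177 and 5594 to 8475 CPM. In AML HET 1 and 2 the erythroid sums were 656 and 2364 CPM, the latter within the AML KO range. Their mature neutrophil sums were 5833 and 6555 CPM, and their megakaryocyte and platelet sums 145 and 193 CPM. For primary granules they were at 5384 and 5977, for HSPC at 721 and 654 and for monocytes at 7413 and 7389 CPM. No marker in any list was at 0 in any mouse. Because BM was sequenced in bulk, fewer cells of a type and less RNA per cell cannot be told apart.

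The summed RNA level of 15 glycolytic enzymes overlapped between the genotypes. At 5 of the 15 (33.3%, against 22.1% of all genes), 3 higher and 2 lower in AML KO, the ranges of AML KO and AML WT were apart. Single genes around the pathway also differed between AML KO and AML WT. Slc2a3, encoding the glucose transporter GLUT3, rose 1.63-fold in AML KO BM. P4ha1, encoding a catalytic subunit of collagen prolyl 4-hydroxylase and a known hypoxia target, fell to 0.576 of its AML WT level. These were 2 of the 33 genes (6.06%) with an adjusted p under 0.05 in the quasi-likelihood test of edgeR, adjusted by Benjamini-Hochberg over all 13305 genes. Over all genes 2.09% passed, 1.77% higher and 0.323% lower in AML KO. DESeq2 and limma-voom called the same 2 genes of the list, and 5.49% and 2.08% of all genes. An unadjusted p under 0.05 was found for 9 of the 33 (27.3%), 4 higher and 5 lower in AML KO, and for 17.7% of all genes, 9.77% higher and 7.88% lower. At 12 genes (36.4%), 6 in each direction, the ranges of AML KO and AML WT were apart, as at 22.1% of all genes, 12.3% higher and 9.83% lower.

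**Figure D1:**
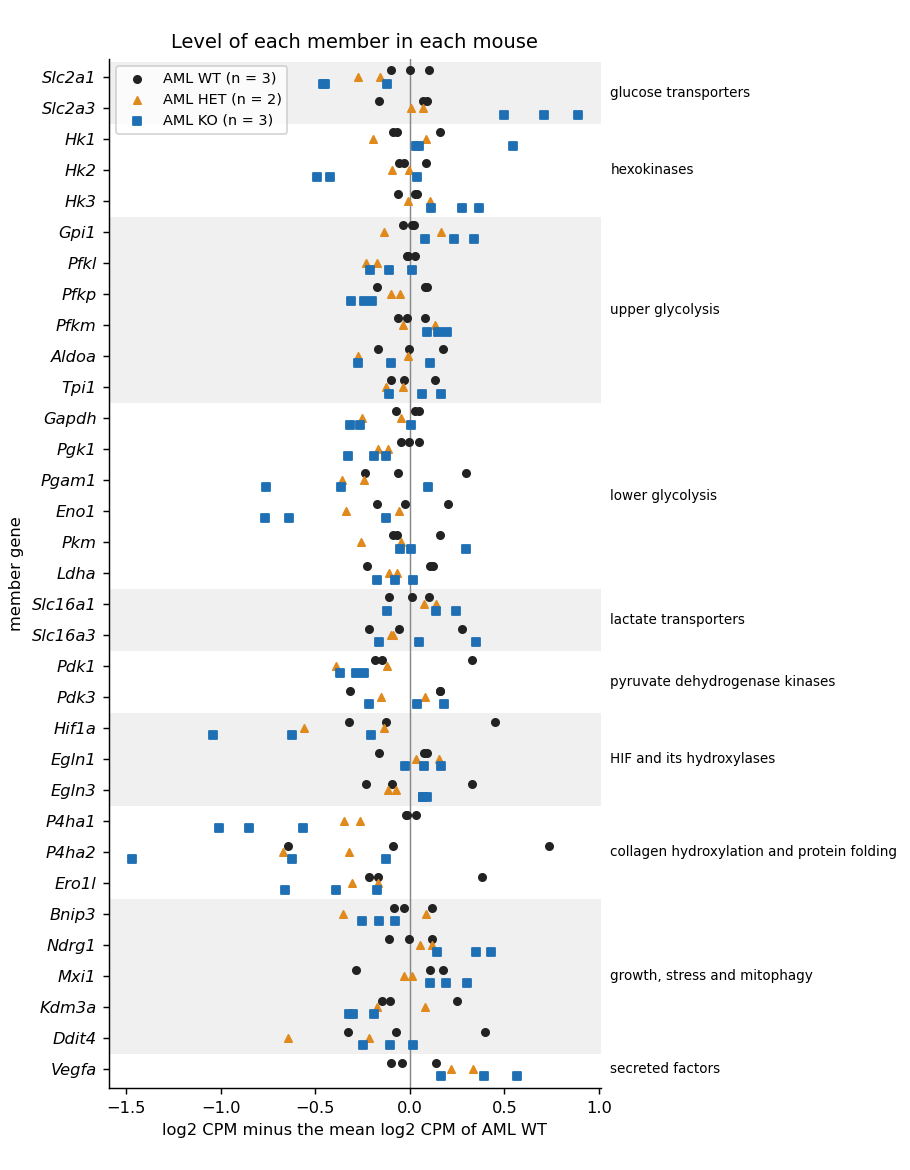
Level of the 33 genes in each of the 8 mice, as log2 CPM minus the mean log2 CPM of AML WT (x axis), by role (y axis, shaded bands). Slc2a3 stands to the right and P4ha1 to the left in all 3 AML KO mice, and most other genes scatter around 0 in every group.

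P4ha1 (ENSMUSG00000019916) lies on chromosome 10 from 59323296 to 59373304 on the plus strand (GENCODE M21, GRCm38). Its promoter is shown because P4ha1 had the smallest p of the listed genes. It is the RefSeq window chr10:59323046-59323345 (GRCm38.p6, plus strand), which holds 250 bases before and 50 bases after the start. The capitals mark the letters GCGTG, found at positions −163 and −126 from the start, and CACGT, which reads ACGTG on the other strand, at position −16.
P4ha1: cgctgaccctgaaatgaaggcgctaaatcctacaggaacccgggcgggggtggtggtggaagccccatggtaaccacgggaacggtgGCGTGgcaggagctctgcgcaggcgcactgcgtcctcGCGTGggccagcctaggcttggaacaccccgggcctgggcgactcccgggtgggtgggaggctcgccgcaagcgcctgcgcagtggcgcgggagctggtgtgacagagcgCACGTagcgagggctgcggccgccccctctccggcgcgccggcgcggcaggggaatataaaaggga

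RefSeq windows were found for 30 of the 33 genes, and those of Slc2a3, Ero1l and Ndrg1 were not analysed here. Both strands were searched for ACGTG and GCGTG, of which ACGTG is also held within CACGTG, the E-box that other factors bind. ACGTG was found for 23 of the 30 genes (76.7%), against 2913 of 10006 genes of the count table with a window (29.1%). Counted over windows, which are several for some genes, it was in 26 of 46 windows of the listed genes (56.5%) and in 19.6% of all 32851 windows. GCGTG was found for 19 of 30 (63.3%) against 55.1% of genes in the table, and in 32.4% of all windows. Either was found for 28 (93.3%) against 66.7%, and CACGTG for 5 (16.7%) against 11.6%. The list was put together from known hypoxia genes, so these shares describe it and were not tested. Windows of 25 bases around ACGTG are shown for the other genes, of the 9 with an unadjusted p under 0.05, whose promoter holds it, again with the match in capitals. For Hk3 and Vegfa, on the minus strand, the letters run 5′ to 3′ along the gene. Eno1, the remaining gene of these with a window, held GCGTG but not ACGTG.
Slc2a1, chr4:119108699-119108723, plus strand: cccgccccggACGTGctccccaggc
Hif1a, chr12:73907787-73907811, plus strand: gctgagagcaACGTGggctggggtg
Hk3, chr13:55021527-55021551, minus strand: tacattttgaCACGTtgcctagttc
Vegfa, chr17:46025360-46025384, minus strand: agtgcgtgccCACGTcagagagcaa
The windows of Hif1a and Vegfa lie before internal starts of RefSeq, several kb inside the genes, whose outermost starts in GENCODE M21 are at 73901375 on chromosome 12 and 46032369 on chromosome 17. For Hif1a, this is the match nearest to that start, at position −70, and another lies within a CACGTG at position −135. Of the genes shown here, chosen by their unadjusted p, Slc2a1 and Hif1a were below and Vegfa and Hk3 above AML WT in AML KO BM. All of them missed the adjusted threshold in the values given below, and a part of these letters in the levels was not tested.

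Glucose enters through transporters, of which Slc2a1 (GLUT1) and Slc2a3 (GLUT3, with a high affinity for glucose) were listed. Slc2a3 (ENSMUSG00000003153, chromosome 6 from 122727809 to 122801640, minus strand) was at 36.1, 30.2 and 35.6 CPM in the AML WT mice, 35.5 and 34.0 in the AML HET mice, and 62.8, 55.4 and 47.8 in the AML KO mice. Every AML KO mouse was above every other mouse, and the AML HET mice lay within the AML WT range. For AML KO against AML WT this gave a log2 fold change of 0.70 (95% CI 0.39 to 1.02, standard error 0.14) and, in the quasi-likelihood test of edgeR, a Benjamini-Hochberg adjusted p of 0.0344. Without single mice it ran from 0.60 to 0.80, with adjusted p from 0.0537 to 0.150, so that the call was lost in each of the 8 fits. The adjusted p was 0.150 without AML WT 2 and 0.112 without AML KO 1. The 2 groups alone gave 0.70 with an adjusted p of 0.0729 in the edgeR test. Against AML HET, the log2 fold change was 0.67 (standard error 0.16, unadjusted p = 0.00192, adjusted p = 0.456 in the edgeR test). The erythroid, mature neutrophil, megakaryocyte, primary granule and HSPC marker sums given above were also higher in every AML KO than in every AML WT mouse. Their part in the level of Slc2a3 was not tested.

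Slc2a1 was at 32.5, 37.5 and 34.9 CPM in AML WT, 31.3 and 28.8 in AML HET and 25.4, 32.1 and 25.5 in AML KO mice. All AML KO mice were below all AML WT mice, by less than 1 CPM at AML KO 2. The log2 fold change of −0.34 (95% CI −0.65 to −0.03) missed the threshold (Benjamini-Hochberg adjusted p = 0.262 by edgeR).

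In CPM, Slc2a1 and Slc2a3 were near each other in AML WT, at 34.9 ± 2.48 and 34.0 ± 3.24 (SD, n = 3). Their balance was compared per length of all exons (3506 and 7245 bases), on which it depends, since CPM alone favours long transcripts. On this scale, Slc2a1 held 68.0 ± 3.54% (SD, n = 3) of the summed CPM per kb of Slc2a1 and Slc2a3 in AML WT, 64.1 ± 0.612% (n = 2) in AML HET and 50.8 ± 4.71% (n = 3) in AML KO BM. Single AML KO mice were at 45.5%, 54.5% and 52.5% and single AML WT mice at 65.1%, 71.9% and 66.9%. The difference of −17.1 percentage points was larger than the SD of either group, and the groups did not overlap (exact two-sided permutation test, p = 0.1, below which 3 mice against 3 cannot go, and 0.22 after Benjamini-Hochberg adjustment over 11 shares).

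Hexokinases make glucose 6-phosphate and trap glucose in the cell. Hk3, the isoenzyme abundant in myeloid cells, had the highest level per length of the 3, with 74.3 ± 2.73 CPM per kb (SD, n = 3) in AML WT, against 22.9 ± 1.21 for Hk2 and 13.9 ± 1.38 for Hk1. Hk3 was at 281, 262 and 278 CPM in AML WT, 272 and 294 in AML HET and 296, 352 and 332 in AML KO mice. The AML KO mice lay above the AML WT mice, and the log2 fold change was 0.25 (95% CI 0.00 to 0.51, unadjusted p = 0.0488, adjusted p = 0.281 by edgeR). Exons of Hk3 and Unc5a, on opposite strands, share up to 34 bases. For Hk2, the isoenzyme that HIF induces, AML KO 2 (140 CPM) lay within the AML WT range of 132 to 145, while AML KO 1 and 3 were at 97.3 and 102. Its log2 fold change was −0.28 ± 0.15 (standard error), and that of Hk1, the widely expressed isoenzyme, was 0.22 ± 0.17. Exons of Hk1 and Hk1os, on opposite strands, share up to 157 bases.

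Within the hexokinases, the share of Hk2 per length was 20.6 ± 0.383% (SD, n = 3) in AML WT and 15.2 ± 1.46% (n = 3) in AML KO BM, and that of Hk3 was 66.9 ± 1.19% and 71.7 ± 2.85%. Both differences, −5.41 and 4.87 percentage points, were without overlap (exact permutation test, p = 0.1 for each). The AML HET mice, with 19.7 ± 0.381% for Hk2 (n = 2), lay next to the AML WT mice.

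**Figure D2:**
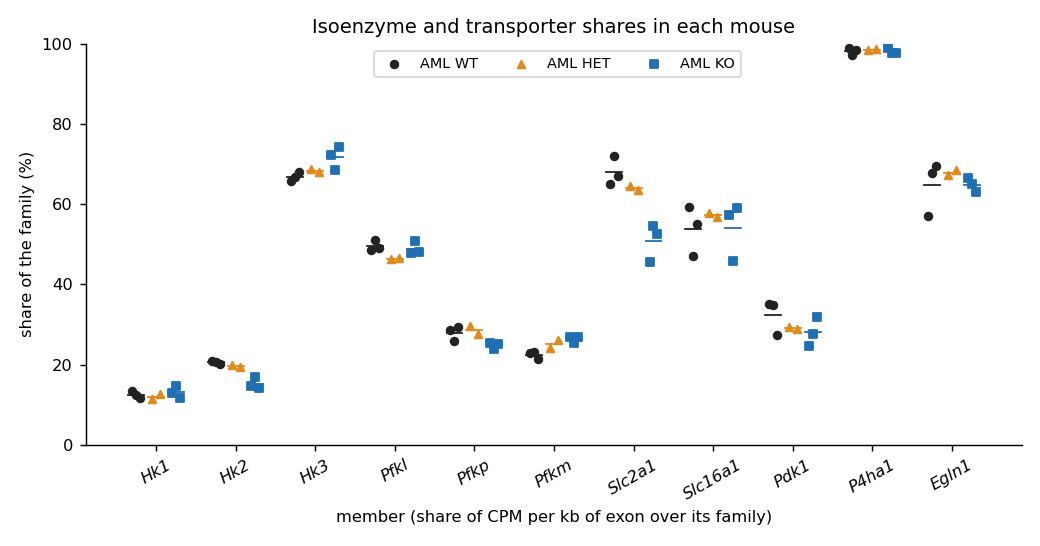
Share of a gene in the summed CPM per kb of exon of its family (y axis, %) for 11 shares (x axis), 1 point per mouse with the group mean as a line. Slc2a1 drops from 68.0% in AML WT to 50.8% in AML KO, and the groups do not overlap for Slc2a1, Hk2, Hk3, Pfkp and Pfkm.

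In the upper steps of glycolysis, 0 of 6 genes passed by edgeR, DESeq2 or limma-voom, against 2.09%, 5.49% and 2.08% of all genes. An unadjusted p under 0.05 in the edgeR test was found for 0, against 17.7% of all genes. Gpi1, which turns glucose 6-phosphate into fructose 6-phosphate, was at 690 ± 15.6 CPM (SD, n = 3) in AML WT and 805 ± 71.7 (n = 3) in AML KO BM. Its lowest AML KO mouse (730 CPM) was above its highest AML WT mouse (702 CPM), and the log2 fold change was 0.22 (95% CI −0.07 to 0.51). Exons of Gpi1 and Gm26762, on opposite strands, share up to 255 bases, so its count may depend on the use of strand, which is not given.

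Phosphofructokinase, which commits sugar to glycolysis, is made from 3 genes. Per length, Pfkl had the highest level in AML WT, with 18.3 ± 0.293 CPM per kb (SD, n = 3). In CPM, Pfkp was higher there, at 139 ± 13.9 against 122 ± 1.96 for Pfkl (SD, n = 3). The order per length and the shares below thus rest on exon lengths of 6675 (Pfkl) and 13401 (Pfkp) bases. Pfkp, the platelet type, was at 147, 123 and 147 CPM in AML WT and 121, 117 and 112 in AML KO mice, which is a log2 fold change of −0.26 (unadjusted p = 0.0509 in the edgeR test). Exons of Pfkp overlap those of Pitrm1 on the opposite strand over up to 748 bases, and whether the counting used strand is not given, so its count may hold reads of Pitrm1. Pfkm, the muscle type, had a log2 fold change of 0.14 and Pfkl, the liver type, of −0.10. The share of Pfkp per length was 27.9 ± 1.89% in AML WT and 24.8 ± 0.771% in AML KO, and that of Pfkm 22.5 ± 0.911% and 26.3 ± 0.863%, both without overlap (exact permutation test, p = 0.1 for each, n = 3 and 3). Aldoa, which splits fructose 1,6-bisphosphate, and Tpi1, which interconverts the resulting triose phosphates, had log2 fold changes of −0.09 (95% CI −0.43 to 0.25) and 0.04 (−0.23 to 0.32).

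In the lower steps, Eno1 was the only one of 6 genes (16.7%, against 17.7% of all genes) with an unadjusted p under 0.05 in the edgeR test. By edgeR, DESeq2 or limma-voom 0 passed, against 2.09%, 5.49% and 2.08% of all genes. Gapdh and Pgk1, the steps that yield NADH and ATP, were at 1452 ± 65.99 and 350 ± 11.7 CPM (SD, n = 3) in AML WT and 1278 ± 156 and 302 ± 20.9 CPM (n = 3) in AML KO BM. Only the AML KO and AML WT mice of Pgk1 did not overlap in this group, where AML KO reached 320 CPM and AML WT began at 339 CPM. The log2 fold changes were −0.18 (95% CI −0.49 to 0.12) for Gapdh, −0.21 (−0.45 to 0.03) for Pgk1, −0.32 (−0.80 to 0.17) for the phosphoglycerate mutase Pgam1, 0.09 (−0.24 to 0.41) for the pyruvate kinase Pkm and −0.08 (−0.38 to 0.21) for the lactate dehydrogenase Ldha. With that of Eno1 (−0.92 to −0.07), the 6 intervals lie within a 2-fold change in either direction.

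Eno1, the enolase that makes phosphoenolpyruvate, was at 739, 863 and 665 CPM in AML WT, 594 and 722 in AML HET and 441, 688 and 482 in AML KO mice. AML KO 2 lay within the AML WT range, and AML KO 1 and 3 below it. The log2 fold change was −0.49 (unadjusted p = 0.0266, adjusted p = 0.243 in the edgeR test). Its count may depend on how reads were divided with Eno1b, a retrocopy of Eno1 that was named after its values were seen. Eno1b had 2681, 7 and 2323 counts in the AML WT mice, 4 and 11 in the AML HET mice and 1506, 1795 and 1704 in the AML KO mice. AML WT 2 and both AML HET mice were thus near 0, and all other mice far above them. Counted as 1 gene, Eno1 and Eno1b reached 805, 864 and 736 CPM in AML WT, 594 and 722 in AML HET and 491, 753 and 532 in AML KO mice. The sum gave a log2 fold change of −0.44 (adjusted p = 0.256 in the edgeR test), and −0.65 without AML KO 2 (adjusted p = 0.0590). Whether reads were shared between Eno1 and Eno1b, or with processed copies of other listed genes such as Gapdh, was not tested.

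**Figure D3:**
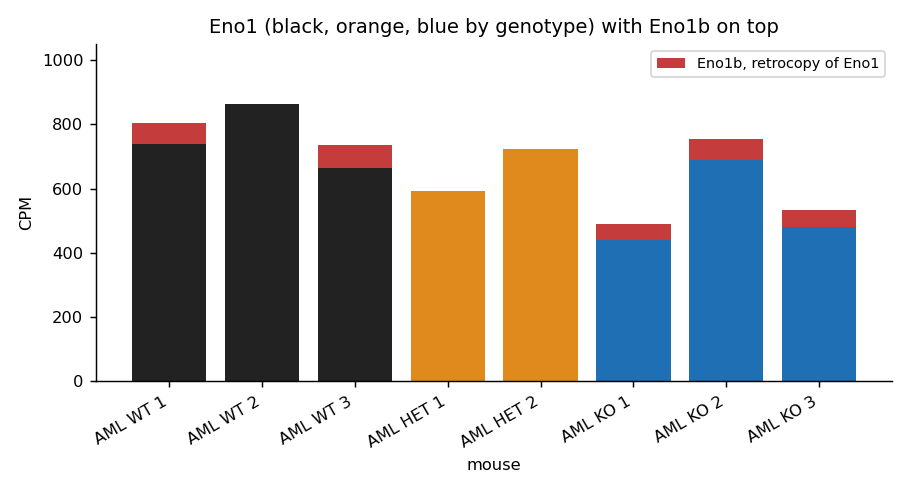
Stacked CPM (y axis) of Eno1 and its retrocopy Eno1b (red) in each mouse (x axis). Eno1b is near 0 in AML WT 2 and both AML HET mice, and the stack is lowest in AML KO 1 (491 CPM).

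Summed over the 15 enzymes from hexokinase to lactate dehydrogenase, AML WT reached 7539 ± 389 CPM (SD, n = 3), the AML HET mice 6500 and 7374 CPM and AML KO 7216 ± 751 CPM (n = 3). The AML KO mice ran from 6586 to 8046 CPM and the AML WT mice from 7310 to 7988 CPM, so the highest and the second lowest mouse of all were AML KO. The enzymes took 0.651% to 0.815% of all counts. Among them, 0 of 15 passed by edgeR, DESeq2 or limma-voom, against 2.09%, 5.49% and 2.08% of all genes. In the edgeR test 2 (13.3%, against 17.7% of all genes) had an unadjusted p under 0.05, Hk3 and Eno1. Per length, Gapdh (351 ± 15.97 CPM per kb in AML WT, n = 3), Pkm (283 ± 27.7), Aldoa (274 ± 32.8) and Ldha (209 ± 27.6) were the highest of the 33 genes in AML WT, and also in AML KO BM. This order rests on the length of all exons. In mean CPM, Eno1 (756) was above Ldha (693) in AML WT, and Gpi1 (805) was above Aldoa (750) and Ldha (654) in AML KO.

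Lactate leaves the cell through Slc16a1 (MCT1) and Slc16a3 (MCT4, the hypoxia-induced exporter). They were at 60.7 ± 4.43 and 62.9 ± 11.3 CPM (SD, n = 3) in AML WT and 64.7 ± 8.22 and 66.4 ± 12.01 CPM (n = 3) in AML KO BM, with log2 fold changes of 0.09 ± 0.13 and 0.08 ± 0.17 (standard error). Differences of this size are below the spread between mice. Pyruvate dehydrogenase kinases keep pyruvate out of mitochondria. Pdk1, known to be induced by HIF, was at 93.2, 66.9 and 65.2 CPM in AML WT and 57.2, 60.8 and 62.5 in AML KO mice. The groups did not overlap, and AML WT 1 stood above the other 5 of these mice. Its log2 fold change was −0.32 ± 0.16 (standard error, unadjusted p = 0.0727 in the edgeR test), and −0.14 without AML WT 1. Pdk3 was at −0.01 ± 0.17.

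Of HIF and its hydroxylases, Hif1a was at 77.2, 51.6 and 45.0 CPM in AML WT, 51.3 and 38.3 in AML HET and 27.4, 48.8 and 36.6 in AML KO mice. AML WT 1 was the highest and AML KO 1 the lowest mouse, and AML KO 2 lay within the AML WT range. The log2 fold change was −0.62 (95% CI −1.20 to −0.05, unadjusted p = 0.0354, adjusted p = 0.260 in the edgeR test), with −0.37 without AML WT 1 and −0.85 without AML KO 2 as its extremes when single mice were left out. Egln1 and Egln3, the hydroxylases that mark HIF-1α for decay, had log2 fold changes of 0.07 (95% CI −0.20 to 0.34) and 0.06 (−0.29 to 0.40). HIF-1α is known to be set mainly at the protein level, which was not measured in these libraries.

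The genes of collagen hydroxylation and protein folding were all fitted lower in AML KO BM. P4ha1 was at 50.4, 48.6 and 48.6 CPM in AML WT, 40.9 and 38.6 in AML HET and 27.3, 33.3 and 24.5 in AML KO mice. All AML WT mice were above both AML HET mice, and these above all AML KO mice. P4ha1 was the 1 gene of the 33 in which the neighbours AML WT, AML HET and AML KO stood apart in that order, against 0.707% of all genes, while 0 of the 33 stood so in the rising order, against 1.77%, and 2.48% of all genes did either. For AML KO against AML WT the log2 fold change was −0.80 (95% CI −1.10 to −0.49, standard error 0.14), at a Benjamini-Hochberg adjusted p of 0.0194 by the quasi-likelihood test of edgeR. Without single mice it ran from −0.93 to −0.70 and passed in 5 of 8 fits. It missed the threshold without AML WT 2 (adjusted p = 0.0860), AML KO 1 (0.0654) and AML KO 3 (0.0836). On the log2 scale, AML HET differed from AML WT by −0.31 (standard error 0.15, adjusted p = 0.990), and AML KO from AML HET by −0.49 (standard error 0.15, unadjusted p = 0.00950, adjusted p = 0.735), both in the edgeR test.

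Markers of stroma and of macrophages did not all move 1 way. The summed level of 10 stroma and endothelium markers was 738 to 1275 CPM in AML WT and 461 to 750 CPM in AML KO mice, with 0 past the threshold and 1 marker higher and 2 lower at an unadjusted p under 0.05. Among them, Col1a1 and Col1a2, the chains of type I collagen and substrates of the P4ha1 enzyme, had log2 fold changes of −0.90 (standard error 0.27, adjusted p = 0.161) and −0.95 (standard error 0.27, adjusted p = 0.131) by edgeR, and DESeq2 gave adjusted p = 0.0289 and 0.0164. They were named after their values were seen. Their sum was 582 to 1110 CPM in AML WT and 289 to 529 CPM in AML KO mice, while that of the other 8 markers of the list was 157 to 186 and 172 to 310 CPM, with 6 of the 8 fitted higher in AML KO. The sum of 9 macrophage markers was 371 to 465 CPM in AML WT and 206 to 334 CPM in AML KO mice, with 2 markers higher and 2 lower past the threshold, 5 of 9 fitted higher and a median log2 fold change of 0.21. The part of these markers in the level of P4ha1 was not tested.

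P4ha2, the other catalytic subunit, was the lowest of the 33 genes, with 1.37 ± 0.672 CPM (SD, n = 3) in AML WT and 0.816 ± 0.353 CPM (n = 3) in AML KO BM, and with 14 to 67 counts per mouse. Its interval of the log2 fold change, −1.78 to 0.28, was the widest, and P4ha1 held 98.2% of the pair per length in both AML WT and AML KO BM. Ero1l, the oxidase that drives disulfide bond formation, was at 88.4, 60.4 and 58.4 CPM in AML WT and 42.8, 60.02 and 51.7 in AML KO mice. AML WT 1 stood apart, and AML KO 2 lay within the AML WT range. It differed by −0.42 on the log2 scale (unadjusted p = 0.0491, adjusted p = 0.281 in the edgeR test), and by −0.21 without AML WT 1.

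Among targets that act on growth, stress and mitophagy, Ndrg1, a gene induced by hypoxia and by differentiation, was at 94.5, 103 and 87.8 CPM in AML WT and 128, 121 and 105 in AML KO mice. The groups did not overlap, with less than 2 CPM between AML WT 2 and AML KO 3, and the log2 fold change was 0.31 (95% CI 0.04 to 0.58, unadjusted p = 0.0299, adjusted p = 0.248 in the edgeR test). Kdm3a, a histone demethylase, was lower in all AML KO mice (50.1 to 55.0 CPM) than in all AML WT mice (56.6 to 74.6 CPM), at a log2 fold change of −0.28 ± 0.14 (standard error). The mitophagy receptor Bnip3, the Myc antagonist Mxi1 and the mTORC1 inhibitor Ddit4 overlapped between the groups, with log2 fold changes of −0.17, 0.19 and −0.14.

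Vegfa, the endothelial growth factor, was at 15.2, 17.95 and 15.8 CPM in AML WT, 19.0 and 20.5 in AML HET and 21.4, 18.3 and 24.1 in AML KO mice. Both AML HET and all AML KO mice were above the AML WT mice. The log2 fold change was 0.38 (95% CI 0.04 to 0.72, unadjusted p = 0.0306, adjusted p = 0.249) for AML KO and 0.27 (standard error 0.17, adjusted p = 0.990) for AML HET against AML WT in the edgeR test. Platelets and megakaryocytes are known to carry Vegfa, and the part of the megakaryocyte marker sum in this level was not tested.

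**Figure D4:**
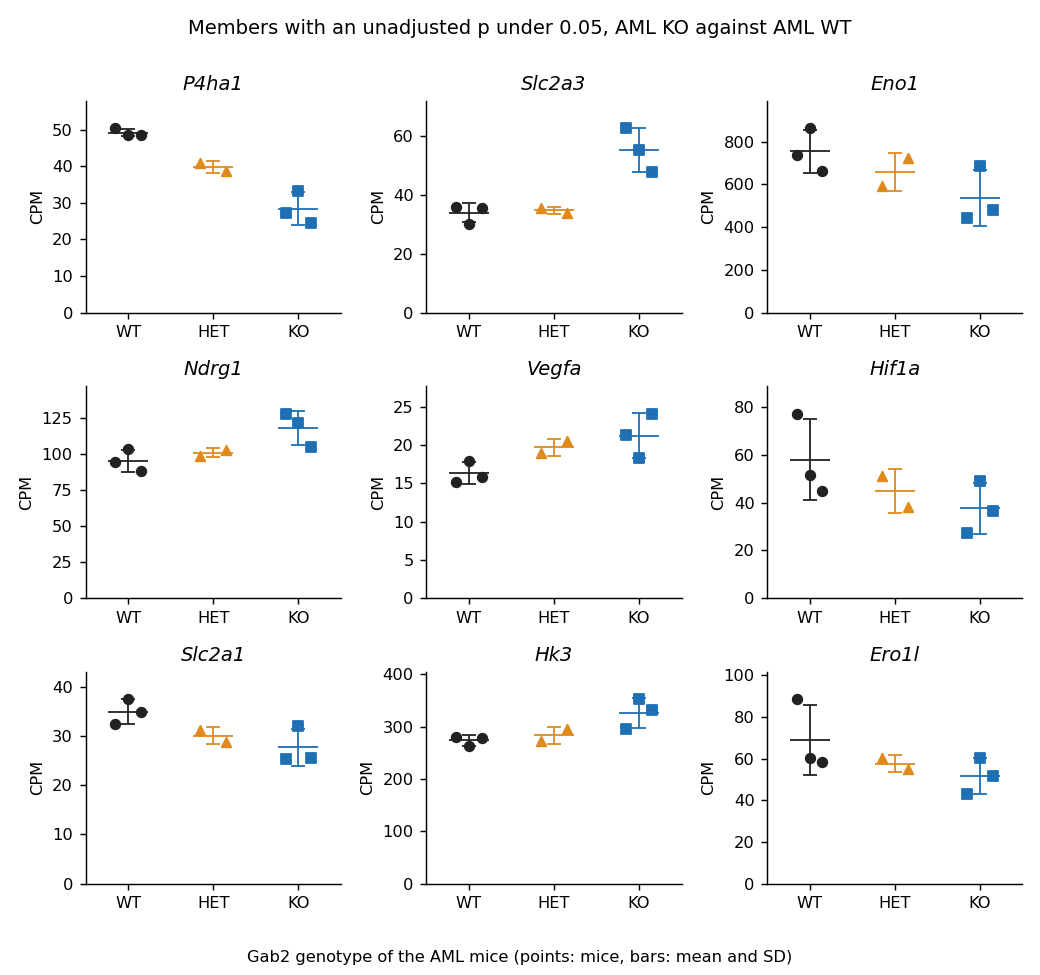
CPM (y axes, from 0) of the 9 genes whose AML KO and AML WT levels differed at an unadjusted p under 0.05, by Gab2 genotype (x axis), with 1 point per mouse and bars for mean and SD. P4ha1 (50.4 to 48.6 CPM in AML WT, 33.3 to 24.5 in AML KO) and Slc2a3 (30.2 to 36.1, 47.8 to 62.8) show the widest gaps between the groups relative to their spread.

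Across the 33 genes, 14 were fitted higher and 19 lower in AML KO than in AML WT BM, where 48.1% of all genes were fitted higher. The median log2 fold change was −0.09, against −0.02 over all genes, and the median size without sign was 0.22, against 0.23. For 22 genes (66.7%) the size was under 0.3, as for 60.6% of all genes, and 4 genes (Slc2a3, Hif1a, P4ha1 and P4ha2) were above 0.5. AML KO 2 was the AML KO mouse nearest to the AML WT mean at 16 of the 33 genes (48.5%, against 44.9% of all genes), AML KO 1 at 9 (27.3%, against 17.1%) and AML KO 3 at 8 (24.2%, against 38.1%). Without AML KO 2, the groups did not overlap at 21 of the 33 genes (63.6%), where the share over all genes was 43.4%. Leaving out AML WT 1, 2 or 3 gave 17, 15 and 17 genes (51.5%, 45.5% and 51.5%, against 27.9%, 31.2% and 36.2% of all genes). Without AML KO 1 or 3 they were 14 and 12 (42.4% and 36.4%, against 26.4% and 31.3% of all genes).

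Between AML HET and AML WT, 0 of the 33 genes passed in edgeR (0.0225% of all genes), 0 had an unadjusted p under 0.05 (2.47% of all genes, 1.65% higher and 0.819% lower), and DESeq2 and limma-voom also called 0 (0.444% and 0.00752% of all genes). The groups did not overlap at 6 (18.2%, against 18.1% of all genes, 9.53% higher and 8.61% lower), of which Slc2a1, Pfkl, Pgk1, Pgam1 and P4ha1 were lower and Vegfa higher in AML HET. By direction alone, 8 genes were fitted higher and 25 lower, with a median of −0.11, where 48.5% of all genes were fitted higher and the median was −0.01. The summed level of the enzymes in AML HET 1 (6500 CPM) was the lowest of the 8 mice. Of AML KO against AML HET, 0 of the 33 were called by edgeR (0.0% of all genes) and by limma-voom, and DESeq2, which called 0.579% of all genes, called Slc2a3. Slc2a3 and P4ha1 were also the 2 genes with an unadjusted p under 0.05 (6.06%, against 5.86% of all genes, 3.52% higher and 2.34% lower), and 8 did not overlap (24.2%, against 24.2% of all genes). In AML KO, 5 of the 33 were higher and 3 lower in this way, and over all 13305 genes 13.2% were higher. The comparisons with AML WT share its 3 mice.

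**Figure D5:**
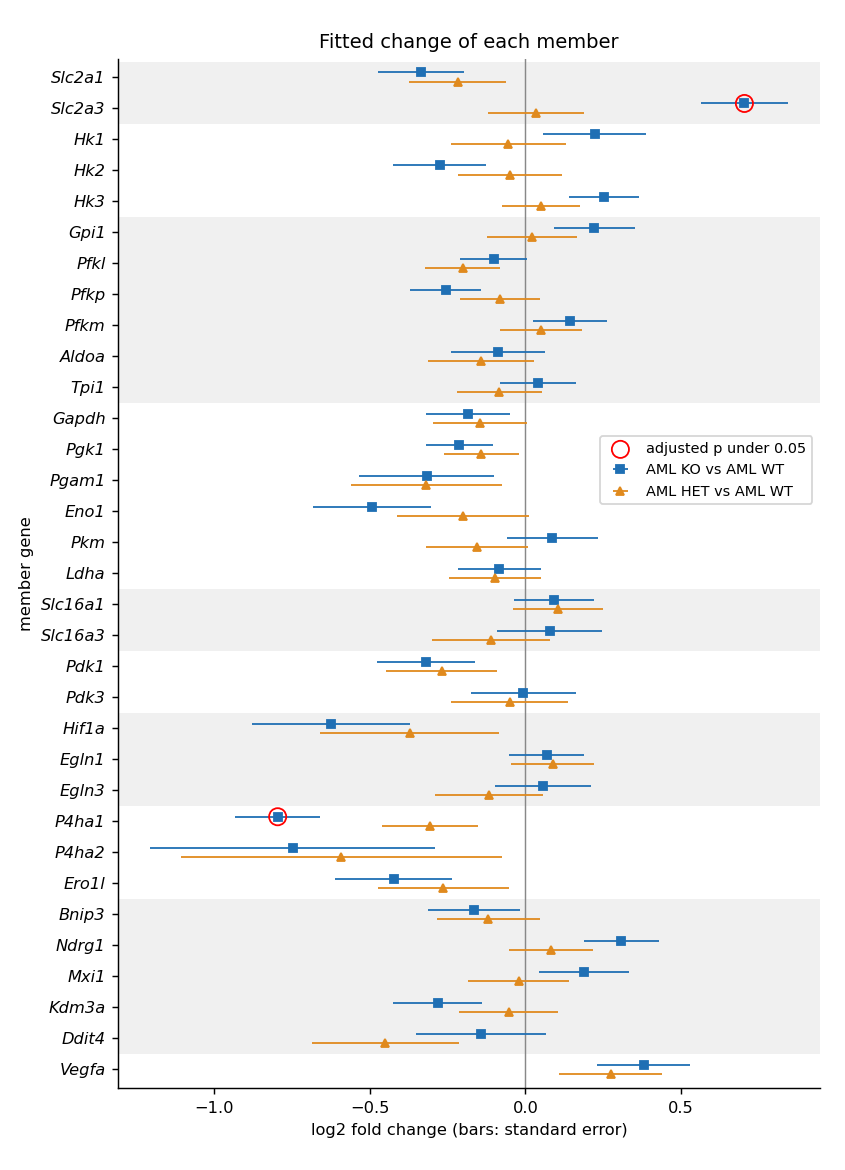
Fitted log2 fold change of each gene (y axis) against AML WT, with its standard error as bars (x axis, log2), for AML KO (blue squares) and AML HET (orange triangles). Red circles mark an adjusted p under 0.05, which only Slc2a3 (0.70) and P4ha1 (−0.80) reached, in AML KO.

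The wider pathway was read from 109 further genes, of which 94 were measured. Between AML KO and AML WT, 2 of them (2.13%, against 2.09% of all genes) passed, both higher in AML KO, 18 (19.1%, against 17.7%) had an unadjusted p under 0.05, and the groups did not overlap at 24 (25.5%, against 22.1%). They split into 47 fitted higher and 47 lower, with a median of 0.00. Bpgm, the enzyme that makes 2,3-bisphosphoglycerate in red cells, was at 20.0, 24.5 and 20.4 CPM in AML WT, 25.8 and 42.3 in AML HET and 70.1, 39.6 and 43.3 in AML KO mice. By edgeR it rose by 1.24 on the log2 scale (standard error 0.25, adjusted p = 0.0383). It passed in 3 of 8 fits without single mice, and without any 1 AML WT mouse, AML KO 1 or AML KO 3 the adjusted p was 0.0814 to 0.111. Ldhb, the lactate dehydrogenase subunit of oxidative tissues, was at 13.5, 11.7 and 9.92 CPM in AML WT, 16.4 and 17.1 in AML HET and 29.9, 24.7 and 24.4 in AML KO mice. It rose by 1.17 on the log2 scale (standard error 0.16, adjusted p = 0.00924 by edgeR) and passed in 7 of 8 such fits, all but that without AML WT 2 (0.0628), while Ldha overlapped between the groups. For both, the AML HET mean lay between the other groups. For both, AML KO 1 was the highest mouse. It was also the highest for the erythroid (5665 CPM), mature neutrophil (17711), megakaryocyte and platelet (515) and HSPC (935) marker sums. The primary granule (8411 CPM), osteoclast (352) and T and NK cell (161) sums were highest in AML KO 2, and the B cell sum (646) in AML HET 2. AML KO 1 was the lowest mouse for the monocyte (5594 CPM), macrophage (206) and stroma and endothelium (461) sums. The part of these cell types in the levels of Bpgm and Ldhb was not tested.

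By list, 2 of 40 other genes of glycolysis and its branches, 0 of 15 other regulators of HIF and 0 of 39 other hypoxia targets passed in edgeR (2.09% of all genes). At an unadjusted p under 0.05 in the edgeR test were 10, 3 and 5 (17.7% of all genes). DESeq2 (5.49% of all genes) called 5 of glycolysis (Adpgk, Bpgm, Ldhb, Pklr and Slc2a4), 0 regulators and 1 target (Flt1). Limma-voom (2.08% of all genes) called 3 (Adpgk, Bpgm and Ldhb), 0 and 0.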

How the data were processed

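RNA of whole BM from 8 AML mice was sequenced, with 1 library per mouse, and the authors deposited raw counts per gene, without normalization. The submitters' processing notes name Trimmomatic 0.36, STAR 2.5.2b and the genome build mm10. The counting tool, the annotation and the use of strand are not given in the sources used here. The lowest sum of a gene over all libraries was 106 among the 13305 genes of the table. Of its Ensembl identifiers, 13266 matched GENCODE M21 (GRCm38, the assembly of mm10) and 39 did not.

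Counts were normalized with TMM in edgeR 4.0.16 (R 4.3.3). filterByExpr removed no gene. The robust quasi-likelihood test was fitted to the 8 libraries by Gab2 genotype, without covariates. Benjamini-Hochberg adjusted p, over the 13305 genes, had to be under 0.05. Standard errors and 95% confidence intervals of log2 fold changes were derived from its F statistic and degrees of freedom. CPM used TMM library sizes, and levels per kb divided them by the length of all exons of a gene. The test was tried on simulated counts of the 13305 genes for AML KO against AML WT. It found 98 of 100 genes changed 4-fold and 80 of 100 changed 2-fold, and called 11 of 13105 unchanged genes. Genes of low level were not among those changed. The fitted changes of the listed genes were all under 2-fold, a size not simulated, so these figures do not give the power for them. Shares were tested by exact permutation (two-sided). Promoters came from RefSeq for GRCm38.p6.

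Libraries held 28009258 to 39266815 counts, with a median of 32049876.5 and each is a separate mouse per the labels, which give no batch or date. All listed genes are named with their values, further genes of the pathway only where they passed the threshold, and promoters were to be printed for listed genes that passed. Eno1b, Col1a1, Col1a2, the genes called by DESeq2 or limma-voom alone and the short promoter windows were chosen after values were seen. The genes and all lists were chosen with earlier results of these data known. Alternatives were DESeq2 1.42.0, limma-voom (limma 3.58.1), other normalizations, library sizes without the 10 genes with the most counts or without the erythroid genes, other filters, the replicate number as a block, the 2 compared groups alone and each mouse left out in turn. Counting Eno1 and Eno1b as 1 gene was added after seeing the data. Figures were drawn with matplotlib 3.10.9 in Python 3.11.15.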

Additional observations from a re-analysis of the deposited data

How the results depend on the processing

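Slc2a3 and P4ha1 stayed past the threshold with DESeq2, limma-voom, other normalizations and other filters. With the replicate number as a block, the log2 fold changes were 0.70 (adjusted p = 0.133) and −0.80 (0.107) in edgeR's quasi-likelihood test, and 0 listed genes passed. Same-numbered mice correlated at −0.51 to 0.29 in 7 pairs, 1 of them over 0.1. These correlations used deviations from group means, which sum to 0 within groups of 2 or 3 mice. They are thus not independent and cannot decide whether the numbers pair the mice. With only the 2 groups compared, 1 listed gene passed, and Slc2a3 (0.70) did not. Without single mice, 0 to 1 passed, with Slc2a3 between 0.60 and 0.80 and P4ha1 between −0.93 and −0.70. The 12 genes without overlap became 12 to 21. The count of all genes between AML KO and AML WT was 278, 730 with DESeq2, 19 with the block, and 40 (without AML WT 2) to 370 (without AML KO 2) without single mice. Leaving out AML WT 1 gave 167, AML KO 1 137 and AML KO 3 123. Between AML HET and AML WT it was 3, 59 with DESeq2, 1 with limma-voom, 0 with the block, 5 with the 2 groups alone and 1 to 5 without single mice. Between AML KO and AML HET it was 0, 77 with DESeq2, of which 1 is a listed gene, 3 with the 2 groups alone and 0 to 4 without single mice. The other 31 listed genes gave 559 values under alternatives, with 0 past the threshold and 14 of the opposite direction, in 8 genes. Pdk3 turned to 0.0190 with upper-quartile normalization and 0.000295 with the block. Without single mice, ranges spanning 0 were −0.19 to 0.0046 for Aldoa, −0.0234 to 0.11 for Tpi1, −0.0312 to 0.17 for Pkm, −0.0737 to 0.23 for Slc16a3, −0.15 to 0.0947 for Pdk3, −0.0194 to 0.12 for Egln1, −0.0507 to 0.23 for Egln3 and −0.29 to 0.0772 for Ddit4. The cause of these changes was not tested. Depth limits P4ha2 most, where 14 counts were the lowest value.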
